A study of Mus musculus with 6 samples.

Results

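The genes described here are 36 that encode enzymes and carriers of fatty acid oxidation and ketone body use. They were taken by gene name from a list that covers acyl-CoA synthesis, carnitine transfer, beta-oxidation, the electron transfer flavoprotein, thioesterases and ketone use. All 36 were found among the 14133 genes of the deposited table, and all 36 passed the filter on low values described below. The label of the list fits most of the products but not all: Acaa1a encodes a peroxisomal thiolase, Acot1 a cytosolic thioesterase, and the synthetases of Acsl3 and Acsl4 sit largely outside mitochondria.

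Heart muscle burns long-chain fatty acids as a main fuel. Acyl-CoA synthetases activate them, the carnitine system carries them across the mitochondrial membranes, and beta-oxidation shortens them in rounds of dehydrogenation, hydration, dehydrogenation and thiolysis. Electrons from the acyl-CoA dehydrogenases reach the respiratory chain through the electron transfer flavoprotein and its dehydrogenase. Ketone bodies made by the liver enter the same acetyl-CoA pool through 3-hydroxybutyrate dehydrogenase, succinyl-CoA:3-ketoacid transferase and acetoacetyl-CoA thiolase.

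Total RNA of mouse hearts (strain C57BL/6, age 1 month) was sequenced in 6 libraries, 3 in each of 2 groups. Control hearts had the genotype Trx1 flox/flox (replicates 3, 4 and 5). The other hearts were Trx1 flox/flox with MHC-Cre, a Cre recombinase under the Myh6 promoter, which is active in cardiomyocytes (replicates 6, 7 and 8). The study asked what loss of thioredoxin-1, encoded by Txn1, does to the heart. Both groups carried the floxed alleles, so they differed in the Cre transgene as well as in its effect on Txn1, and hearts with Cre and unfloxed alleles were not analysed here. The labels do not state that replicates are separate animals, so p-values measure the spread between these samples.

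Txn1 itself was not lower in the libraries with Cre. Its level was 6.640, 6.996 and 7.042 log2 CPM in the controls and 6.95, 6.90 and 7.13 log2 CPM in the other group, and the groups overlapped (log2 difference 0.10, 95% confidence interval -0.22 to 0.42, limma adjusted p = 0.72). The value covers the whole gene and all cell types of the heart, and cannot tell a right label from a wrong one. The second group is therefore called the libraries labelled knockout, and every direction is labelled knockout relative to control. The reads recovered from the deposited values ranged from 8347636 to 13705281 per library.

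Transcripts of 17 of the 36 genes were less abundant in the hearts labelled knockout, while those of 1 ketone enzyme gene, Bdh1, were 10.7-fold more abundant. The 17 that fell and the 1 that rose left 18 that did not pass the test (limma on log2 CPM, Benjamini-Hochberg adjusted p under 0.05 over 12516 tested genes). Over all tested genes 4.87% fell and 4.79% rose. The median log2 fold change was -0.56 for the 36 genes and -0.01 for all tested genes. Of the 18 genes that did not pass, 14 had a negative log2 fold change, which makes 31 of the 36 in all, against 51.2% of all tested genes.

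All 3 values labelled knockout lay below all 3 control values for 26 of the 36 genes and above them for 2, Acsl5 and Bdh1. The same held for 16.2% and 14.4% of all tested genes. Summed over the 36 genes, the level was 19787, 20949 and 19923 CPM in control replicates 3, 4 and 5. It was 11178, 11428 and 15472 CPM in replicates 6, 7 and 8. Replicate 8 was the nearest of its group to the controls in this sum, and also gene by gene for 26 of the 36 genes and for all 17 that fell. The share over all tested genes was not counted, so this is not shown to be particular to the 36. Without replicate 8, the number of all tested genes past the test also went up, from 1209 to 2176.

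The genes that fell were abundant ones. With a line drawn at a mean of 7 log2 CPM, chosen after the values were seen, 24 of the genes lay above it. Of those 17 fell, and 0 of the 12 below it fell. Among all 1217 tested genes above that line 16.0% fell, and among all tested genes at any level 4.87% fell. A count of 0 of 12 cannot be told from a share that low. Below the line, the log2 fold changes of Acot1, Ucp3, Acad10 and Acot2 were -1.06, -0.93, -0.80 and -0.69. Their SE was 0.46, 0.29, 0.33 and 0.21, against 0.12 to 0.19 for the 17 genes. Acsl3, Acsl4, Acsl5 and Cpt1a, also below it, had positive log2 fold changes, and Bdh1 rose. The count below the line therefore does not show that all those genes changed less. In bulk heart RNA, fewer cardiomyocytes and less of these RNAs per cardiomyocyte cannot be told apart.

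**Figure D1:**
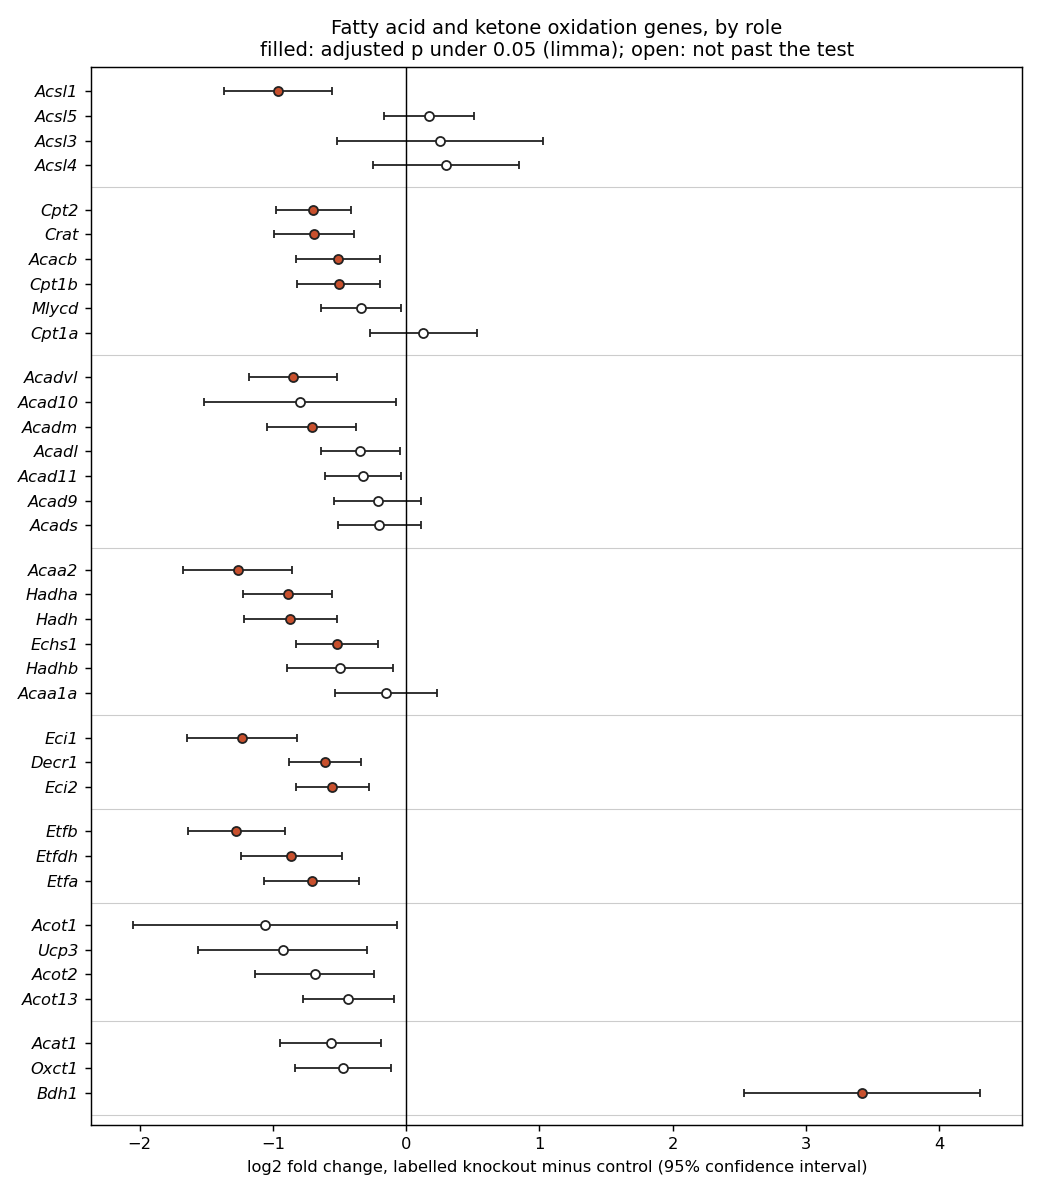
Log2 fold change of each of the 36 genes, labelled knockout minus control, with its 95% confidence interval (limma), in blocks by role from acyl-CoA synthetases at the top to ketone use at the bottom. Filled points passed the test. The 17 genes that fell lie between -1.27 and -0.51, and Bdh1 lies alone at 3.42.

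Fatty acids are first joined to coenzyme A. Acsl1, the main long-chain acyl-CoA synthetase of the heart, had 9.60, 9.66 and 9.49 log2 CPM in the controls and 8.28, 8.47 and 9.12 log2 CPM in the libraries labelled knockout. The groups did not overlap, and Acsl1 fell by 0.96 ± 0.19 on the log2 scale (SE, adjusted p = 0.0076, or 48.7% lower). Its call was lost without control replicate 4 (adjusted p = 0.056).

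The 3 other synthetase genes did not pass the test. Acsl5 had 5.22, 5.20 and 5.33 log2 CPM in the controls against 5.53, 5.34 and 5.40, so its values were just above the controls (log2 fold change 0.17 ± 0.16, adjusted p = 0.54). Acsl4, whose enzyme prefers arachidonate, had 3.80, 4.05 and 3.93 against 3.925, 4.753 and 3.996 log2 CPM, with replicate 7 standing above the rest (0.30 ± 0.25, adjusted p = 0.51). Acsl3, an enzyme of the endoplasmic reticulum and lipid droplets, ranged from 2.38 to 3.59 in the controls and from 2.88 to 3.77 log2 CPM in the other group (0.26 ± 0.36, adjusted p = 0.71). Without control replicate 5 the log2 fold change of Acsl3 was -0.08. Within each library, Acsl1 minus Acsl4 was 5.80, 5.61 and 5.57 log2 in the controls and 4.36, 3.71 and 5.12 log2 in the libraries labelled knockout. The means differed by -1.26 (exact two-sided permutation p = 0.1, the smallest that 3 against 3 allows, and 0.12 adjusted over the 6 pairs compared).

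Of the 6 genes of carnitine transfer and its control by malonyl-CoA, 4 fell. For this and the counts by role below, the share that fell was 4.87% over all tested genes and 16.0% above 7 log2 CPM. Whether the roles differed from each other was not tested. Cpt2, the carnitine palmitoyltransferase of the inner mitochondrial membrane, had 8.31, 8.42 and 8.13 log2 CPM in the controls and 7.51, 7.55 and 7.70 in the other group. It fell by 0.70 ± 0.13 (log2, SE, adjusted p = 0.0060), and the 2 groups were separate by 0.43 log2. Crat, which moves short acyl groups between carnitine and coenzyme A, had 9.08, 9.15 and 9.05 against 8.31, 8.24 and 8.66 log2 CPM and fell by 0.69 ± 0.14 (adjusted p = 0.0088). Without control replicate 4 the adjusted p was 0.059 for Cpt2, and leaving out control 4 or 5 ended the call of Crat (up to 0.068).

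The outer-membrane step has a muscle form, Cpt1b, and a form best known from liver, Cpt1a. Cpt1b had 9.97, 10.06 and 9.85 log2 CPM in the controls and 9.38, 9.28 and 9.70 in the libraries labelled knockout, and fell by 0.51 ± 0.14 (log2, SE, adjusted p = 0.044). This call was among the weakest. It was lost with any library other than replicate 8 left out (adjusted p up to 0.21), with limma-voom on recovered reads (0.083), with no filter (0.058) and after quantile normalization (0.082). Cpt1a had 5.75, 5.77 and 5.44 against 5.47, 6.08 and 5.79 log2 CPM, and the groups overlapped (log2 fold change 0.13 ± 0.18, adjusted p = 0.71). Without replicate 7 the log2 fold change of Cpt1a was -0.02. Cpt1b minus Cpt1a was 4.22, 4.29 and 4.42 log2 in the controls and 3.92, 3.20 and 3.90 log2 in the other group, a mean difference of -0.64 (exact two-sided permutation p = 0.1, 0.12 adjusted over 6 pairs) that was -0.40 without replicate 7.

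Malonyl-CoA blocks the outer-membrane step. Acacb, the mitochondrial acetyl-CoA carboxylase that makes it, had 9.23, 9.27 and 9.18 log2 CPM against 8.467, 8.688 and 8.995, and fell by 0.51 ± 0.15 (log2, SE, adjusted p = 0.046). As for Cpt1b, the call was lost with any library other than replicate 8 left out (adjusted p up to 0.19), with limma-voom (0.077), with no filter (0.057) and after quantile normalization (0.073). Mlycd, the decarboxylase that removes malonyl-CoA, had 6.89, 6.74 and 6.80 log2 CPM against 6.48, 6.30 and 6.62 (-0.34 ± 0.14, adjusted p = 0.15). The values of Mlycd did not overlap either. Acacb minus Mlycd went from 2.42 ± 0.09 to 2.25 ± 0.23 log2 (SD, n = 3 each), a difference within the spread of the libraries (exact two-sided permutation p = 0.5, also after adjustment over 6 pairs). The difference was -0.17, and -0.04 without replicate 6.

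**Figure D2:**
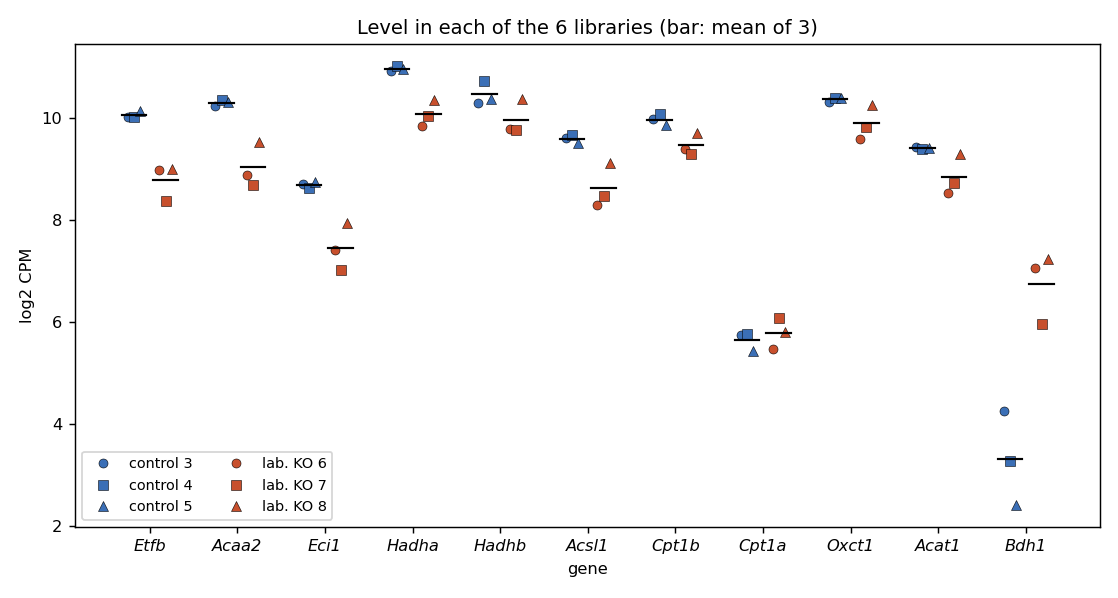
Level in log2 CPM of 11 of the genes in each of the 6 libraries, blue for control replicates 3, 4 and 5 and orange for labelled knockout replicates 6, 7 and 8, with a bar at the mean of 3. Etfb, Acaa2, Eci1, Hadha, Acsl1 and Cpt1b are lower in all 3 orange libraries, Cpt1a overlaps, and Bdh1 is higher in all 3. Levels are not corrected for transcript length and are to be compared within a gene.

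The acyl-CoA dehydrogenases open each round of beta-oxidation and are told apart by chain length. Acadvl, for very long chains, had 10.89, 10.87 and 10.84 log2 CPM in the controls and 9.97, 9.80 and 10.29 in the libraries labelled knockout. It fell by 0.85 ± 0.15 (log2, SE, adjusted p = 0.0050) and kept its call with each library left out (adjusted p up to 0.044). Acadm, for medium chains, had 10.21, 10.28 and 10.20 against 9.36, 9.36 and 9.84 log2 CPM and fell by 0.71 ± 0.15 (adjusted p = 0.013). The call of Acadm was lost without any 1 of the 3 controls (adjusted p up to 0.084).

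The other 5 dehydrogenase genes did not pass the test, and all 5 log2 fold changes were negative. Acadl, for long chains, had 10.27, 10.34 and 10.23 against 9.75, 9.97 and 10.10 log2 CPM, without overlap (-0.34 ± 0.14, adjusted p = 0.14, and 0.017 without replicate 8). Acads, for short chains, had 7.80, 7.80 and 7.55 against 7.39, 7.41 and 7.75, and replicate 8 lay within the control range (-0.20 ± 0.14, adjusted p = 0.43). Acad9, whose product also helps assemble respiratory complex I, overlapped between groups (-0.21 ± 0.15, adjusted p = 0.42). Acad10 and Acad11, 2 further members of the family, had log2 fold changes of -0.80 ± 0.33 and -0.32 ± 0.13 (adjusted p = 0.15 for both), both without overlap, and without replicate 8 Acad11 passed (0.038). For the long-chain and short-chain enzymes the 95% intervals of the log2 fold change ran from -0.64 to -0.04 and from -0.51 to 0.11.

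Of the 6 genes for the later steps of the round, 4 fell. Acaa2, the mitochondrial 3-ketoacyl-CoA thiolase, had 10.23, 10.33 and 10.29 log2 CPM in the controls and 8.88, 8.67 and 9.52 in the libraries labelled knockout. It fell by 1.26 ± 0.19 (log2, SE, adjusted p = 0.0020), which is 58.4% lower. Hadh, the hydroxyacyl-CoA dehydrogenase for short and medium chains, had 9.10, 9.27 and 9.10 against 8.08, 8.12 and 8.67 log2 CPM and fell by 0.87 ± 0.16 (adjusted p = 0.0059, 0.052 without control 4). Echs1, the short-chain enoyl-CoA hydratase, had 8.61, 8.62 and 8.71 against 7.92, 8.06 and 8.40 log2 CPM and fell by 0.52 ± 0.14 (adjusted p = 0.039). Like Cpt1b, Echs1 lost its call with any library other than replicate 8 left out (adjusted p up to 0.17) and with limma-voom (0.0702). Acaa1a, the peroxisomal thiolase of the list, overlapped between groups (-0.15 ± 0.18, adjusted p = 0.65).

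Hadha and Hadhb encode the alpha and beta subunits of the trifunctional protein, which carries out the last 3 steps on long chains. Hadha had 10.91, 11.01 and 10.96 log2 CPM in the controls and 9.84, 10.03 and 10.34 in the other group, and fell by 0.89 ± 0.15 (log2, SE, adjusted p = 0.0040, up to 0.042 with 1 library left out). Hadhb had 10.28, 10.71 and 10.37 against 9.77, 9.75 and 10.35 log2 CPM, where replicate 8 reached the control range (-0.49 ± 0.18, adjusted p = 0.11, and 0.0028 without replicate 8). Hadha minus Hadhb was 0.64, 0.30 and 0.59 log2 in the controls and 0.07, 0.28 and -0.02 log2 in the libraries labelled knockout. The means differed by -0.40 (exact two-sided permutation p = 0.1, 0.12 adjusted over 6 pairs).

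These subunit genes lie head to head on chromosome 5, with 272 bases between their annotated starts (chr5:30154981-30155252, GRCm38.p6, the assembly family of mm10, plus strand). The stretches below show that shared region and the 250 bases before the starts of 4 further genes: Acadm (chr3:153944644-153944893, minus strand) and Acadvl (chr11:70015429-70015678, minus strand), which fell together, Etfb (chr7:43443822-43444071, plus strand), which fell by 1.27 (log2), and Bdh1, which rose and has 2 annotated starts (chr16:31422047-31422296 and chr16:31428503-31428752, plus strand). All are from RefSeq and read 5′ to 3′ on the strand named. Capitals mark AGGTCA or its reverse complement, the hexamer to which receptors such as PPAR-alpha and the estrogen-related receptors bind.
Hadha and Hadhb, between their starts: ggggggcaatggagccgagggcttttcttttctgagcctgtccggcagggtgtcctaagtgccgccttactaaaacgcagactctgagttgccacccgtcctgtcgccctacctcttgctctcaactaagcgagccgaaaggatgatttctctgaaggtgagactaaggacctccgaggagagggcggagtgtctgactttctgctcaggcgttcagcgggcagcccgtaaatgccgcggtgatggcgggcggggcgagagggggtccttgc
Acadm: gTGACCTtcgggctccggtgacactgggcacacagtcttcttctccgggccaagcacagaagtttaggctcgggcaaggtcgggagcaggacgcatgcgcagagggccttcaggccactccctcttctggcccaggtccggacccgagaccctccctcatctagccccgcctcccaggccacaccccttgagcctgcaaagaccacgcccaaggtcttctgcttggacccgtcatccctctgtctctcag
Acadvl: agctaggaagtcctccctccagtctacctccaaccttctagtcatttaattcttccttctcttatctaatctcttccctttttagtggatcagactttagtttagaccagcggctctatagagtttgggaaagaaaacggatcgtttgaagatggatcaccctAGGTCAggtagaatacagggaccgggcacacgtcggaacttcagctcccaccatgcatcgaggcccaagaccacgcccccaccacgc
Etfb: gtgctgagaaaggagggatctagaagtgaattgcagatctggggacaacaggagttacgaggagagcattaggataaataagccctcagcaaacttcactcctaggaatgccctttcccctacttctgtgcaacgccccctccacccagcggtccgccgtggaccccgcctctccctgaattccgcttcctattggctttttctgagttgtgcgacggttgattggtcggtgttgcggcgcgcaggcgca
Bdh1 start A: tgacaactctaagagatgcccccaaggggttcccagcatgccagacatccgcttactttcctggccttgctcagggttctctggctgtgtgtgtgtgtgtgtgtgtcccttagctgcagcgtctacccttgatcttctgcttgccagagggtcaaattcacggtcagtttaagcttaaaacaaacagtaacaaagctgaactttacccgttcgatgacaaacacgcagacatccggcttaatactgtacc
Bdh1 start B: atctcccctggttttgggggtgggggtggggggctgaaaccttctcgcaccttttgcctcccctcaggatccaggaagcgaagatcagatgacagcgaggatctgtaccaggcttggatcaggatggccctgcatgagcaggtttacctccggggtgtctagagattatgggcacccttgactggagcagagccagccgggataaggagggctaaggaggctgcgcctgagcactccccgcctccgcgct

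RefSeq windows from 250 bases before to 50 after a start were at hand for 29 of the 36 genes, 31 windows in all. The hexamer AGGTCA, searched on both strands, occurred in 6 of these 31 windows and in 16.3% of the 32851 windows of all genes. The 6 windows belonged to Acadm and Acadvl, shown above, and to Acacb, Cpt1a, Echs1 and Ucp3. In Acadm the match began 249 bases and in Acadvl 87 bases before the start (first bases at -249 and -87). The direct repeat AGGTCANAGGTCA, which contains the hexamer, and the element TNAAGGTCA, which also contains it, occurred in 0 of the 31 windows and in 0.0396% and 1.28% of all windows. These counts describe letters in short windows and say nothing of binding.

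All 3 genes for unsaturated fatty acids fell, against 16.0% of all tested genes above 7 log2 CPM. Eci1, an enoyl-CoA isomerase of mitochondria, had 8.70, 8.62 and 8.74 log2 CPM in the controls and 7.40, 7.03 and 7.93 in the libraries labelled knockout, a fall of 1.23 ± 0.19 (log2, SE, adjusted p = 0.0023). Eci2, a second isomerase, had 7.92, 7.90 and 7.96 against 7.24, 7.36 and 7.52 log2 CPM and fell by 0.55 ± 0.13 (adjusted p = 0.017). Decr1, the dienoyl-CoA reductase, had 8.62, 8.65 and 8.64 against 7.90, 8.01 and 8.17 log2 CPM and fell by 0.61 ± 0.12 (adjusted p = 0.00998). The calls of Eci2 and Decr1 were lost without any 1 of the 3 controls (adjusted p up to 0.098 and 0.0695). Eci1 minus Eci2 was 0.78, 0.72 and 0.78 log2 in the controls and 0.16, -0.34 and 0.42 log2 in the other group, a mean difference of -0.68 (exact two-sided permutation p = 0.1, 0.12 adjusted over 6 pairs).

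The electron transfer flavoprotein genes also all fell, 3 of 3, against the same 16.0% of all tested genes above 7 log2 CPM. Etfb, the beta subunit, had 10.00, 10.02 and 10.12 log2 CPM in the controls and 8.97, 8.37 and 8.98 in the libraries labelled knockout. The groups were 1.02 log2 apart at their nearest values, and Etfb fell by 1.27 ± 0.17 (log2, SE, adjusted p = 0.0011), which is 58.6% lower. Etfa, the alpha subunit, had 9.95, 9.98 and 9.98 against 9.02, 9.11 and 9.65 log2 CPM and fell by 0.71 ± 0.16 (adjusted p = 0.018). Etfdh, which passes the electrons to ubiquinone, had 9.57, 9.76 and 9.76 against 8.48, 8.79 and 9.24 log2 CPM and fell by 0.86 ± 0.18 (adjusted p = 0.0096). Etfb kept its call with each library left out (adjusted p up to 0.015). Etfa lost it without any 1 control or replicate 7 (up to 0.095), and Etfdh without control 4 or 5 (up to 0.069). Etfb minus Etfa was 0.05, 0.04 and 0.15 log2 in the controls and -0.05, -0.74 and -0.66 log2 in the other group, a mean difference of -0.57 (exact two-sided permutation p = 0.1, 0.12 adjusted over 6 pairs).

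**Figure D3:**
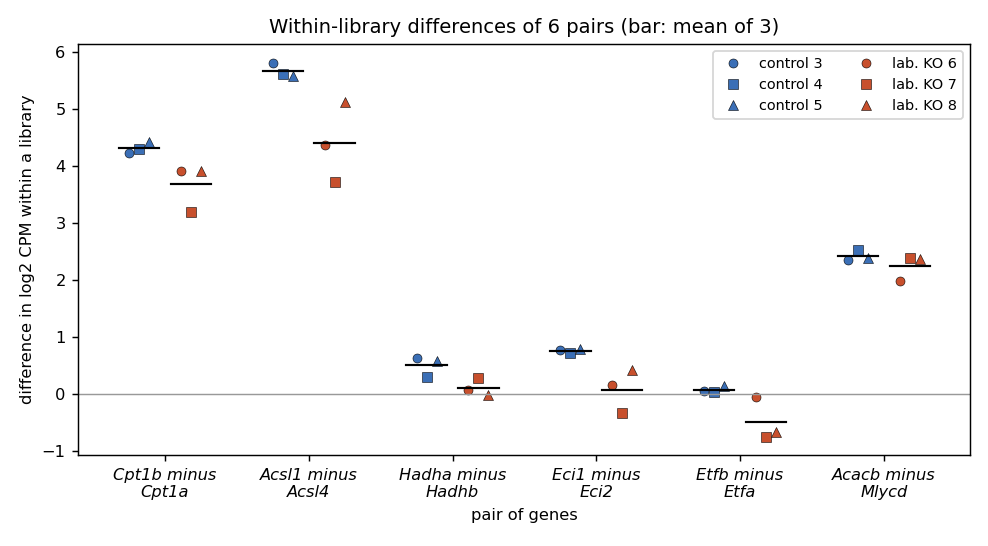
Within-library difference in log2 CPM of 6 pairs of genes, blue for control replicates 3, 4 and 5 and orange for labelled knockout replicates 6, 7 and 8, with a bar at the mean of 3. In 5 of the pairs all orange points lie below all blue ones, where the exact p is 0.1, and for Acacb minus Mlycd they overlap.

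The thioesterases, which split acyl-CoA back into fatty acid and coenzyme A, and the carrier gene Ucp3 gave 0 calls among 4 genes with limma and 0 with limma-voom, although all 4 had an unadjusted p under 0.05 and a negative log2 fold change, as did 12.9% of all tested genes. Ucp3, a mitochondrial carrier of muscle and a known PPAR target, had 4.19, 4.88 and 3.92 log2 CPM against 3.00, 3.75 and 3.45, without overlap (-0.93 ± 0.29, adjusted p = 0.066). Acot2, the thioesterase of the mitochondrial matrix, had 5.84, 6.12 and 5.28 against 4.96, 5.16 and 5.05 log2 CPM, also without overlap (-0.69 ± 0.21, adjusted p = 0.055, but 0.034 without control 5 and 0.048 with a robust trend). Acot1 overlapped between groups (-1.06 ± 0.46, adjusted p = 0.17). Acot1 and Acot2 neighbour each other on chromosome 12, and their transcripts are 93.8% identical over 1337 aligned bases, so reads may have been split between them and both values are uncertain. Acot13, a thioesterase that associates with mitochondria, had 8.16, 8.14 and 8.09 against 7.42, 7.62 and 8.05 log2 CPM (-0.43 ± 0.16, adjusted p = 0.10, but 0.0036 without replicate 8 and 0.047 with library weights).

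Among the 3 genes of ketone use, Bdh1 rose and the other 2 did not pass the test. Bdh1, the mitochondrial 3-hydroxybutyrate dehydrogenase that begins the use of the main ketone body, had 4.27, 3.29 and 2.42 log2 CPM in the controls and 7.05, 5.96 and 7.22 in the libraries labelled knockout. In recovered reads these were 258, 87 and 52 in the controls against 1294, 637 and 1281. The lowest value labelled knockout lay 1.70 log2 above the highest control, although the controls themselves spanned a wider range than that gap. Bdh1 rose by 3.42 ± 0.41 (log2, SE, 95% confidence interval 2.53 to 4.31, adjusted p = 6.2e-04). It passed the test in all 15 alternative fits, though only just without an intensity trend (limma adjusted p = 0.0495, and 0.018 with a robust trend). When 1 library was left out, the log2 fold change of Bdh1 was 2.97 to 3.89 and the adjusted p at most 0.0066.

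Oxct1, the transferase that commits ketone bodies to oxidation, had 10.31, 10.39 and 10.38 log2 CPM in the controls and 9.59, 9.82 and 10.25 in the other group (-0.48 ± 0.17, adjusted p = 0.093). Acat1, the mitochondrial acetoacetyl-CoA thiolase, had 9.41, 9.39 and 9.40 against 8.52, 8.71 and 9.28 log2 CPM (-0.57 ± 0.18, adjusted p = 0.062). In both genes all 3 values labelled knockout were below the controls, with replicate 8 close under them. Without replicate 8 both passed the test, Oxct1 with an adjusted p of 0.0012 and Acat1 with 3.4e-04 (limma), and so they did with library weights (0.039 and 0.017).

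**Figure D4:**
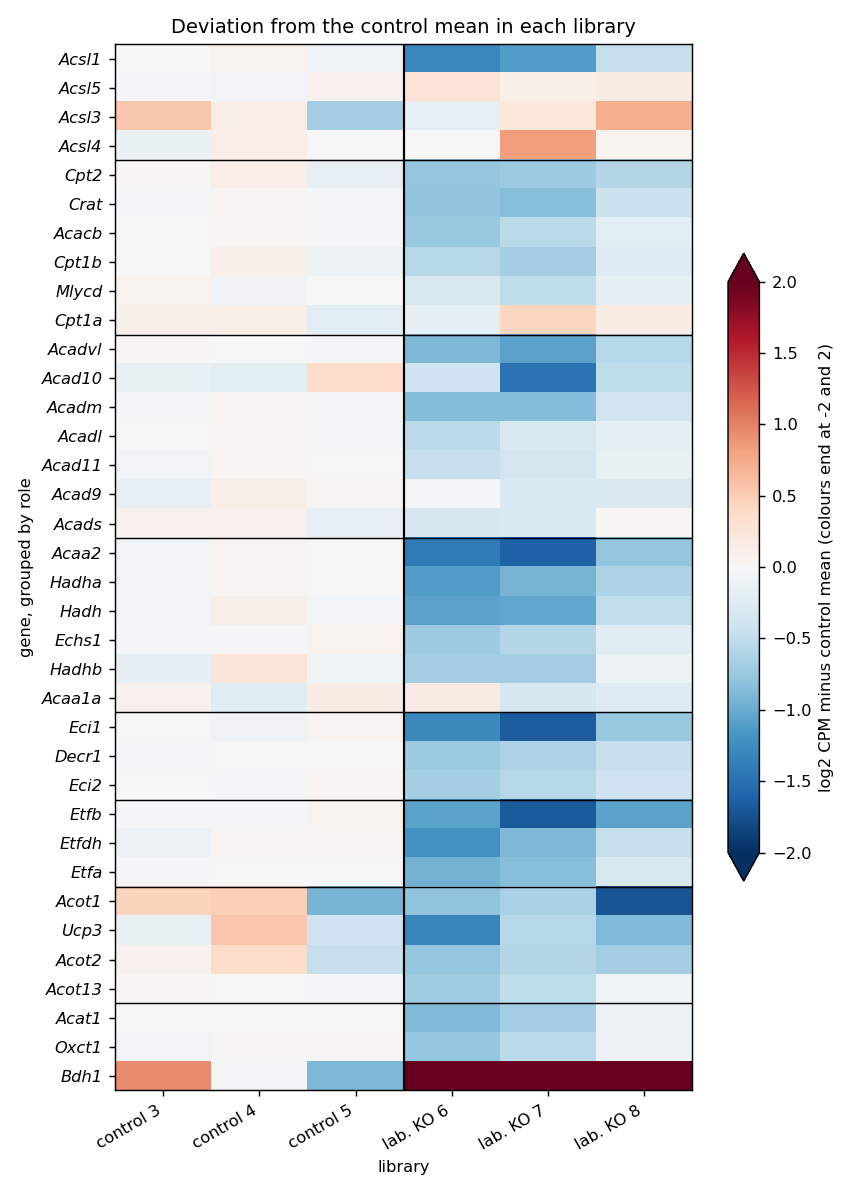
Deviation of each of the 36 genes from its control mean (log2 CPM, colours from blue for lower to red for higher, ending at -2 and 2) in the 6 libraries, with rows in blocks by role. Replicates 6 and 7 are blue for most genes, replicate 8 is paler, and Bdh1 is the row in red at the bottom.

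Of 32 genes listed as other mitochondrial fatty acid and ketone genes, 30 were tested. Not all products of this list are mitochondrial, and that of Bdh2, for example, is cytosolic. Of the 30 tested genes 6 fell, 1 rose and 23 did not pass, with a median log2 fold change of -0.34. Over all tested genes 4.87% fell and 4.79% rose. Ech1, the dienoyl-CoA isomerase that works beside Decr1, had 10.56, 10.46 and 10.52 log2 CPM against 9.35, 9.16 and 9.73 and fell by 1.10 ± 0.16 (log2, SE, adjusted p = 0.0016). Slc25a20, the carrier that exchanges acylcarnitine for carnitine between Cpt1 and Cpt2, fell by 0.63 ± 0.13 (adjusted p = 0.012). Mcee, the methylmalonyl-CoA epimerase of odd-chain oxidation, and Acot7, an acyl-CoA thioesterase, fell by 0.85 and 0.65 (adjusted p = 0.012 and 0.014). Acot9, a mitochondrial thioesterase, was the 1 that rose (0.67 ± 0.19, adjusted p = 0.042). Slc16a1, a transporter of lactate and ketone bodies, did not pass the test (log2 fold change 0.32 ± 0.20, adjusted p = 0.37).

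Peroxisomal beta-oxidation was the nearest related pathway, with 16 of its 20 listed genes tested. None passed, 0 with limma and 0 with limma-voom, while 8 of the 16 had an unadjusted p under 0.05, 7 of them lower, against 24.8% of all tested genes in either direction and 12.9% lower, and the median log2 fold change was -0.25. Abcd3, a peroxisomal acyl-CoA transporter, had 7.28, 7.26 and 7.08 log2 CPM against 6.45, 6.93 and 6.80 (-0.48 ± 0.15, adjusted p = 0.065). Amacr, a racemase of branched fatty acids, and Nudt7, a coenzyme A hydrolase, had log2 fold changes of -0.68 ± 0.23 and -0.49 ± 0.18 (adjusted p = 0.085 and 0.11). Abcd2 varied most, from -0.96 to 3.01 log2 CPM in the libraries labelled knockout (-2.03 ± 0.75, adjusted p = 0.11). Whether peroxisomal and mitochondrial genes changed unequally was not tested.

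The markers of heart cell types that passed the test were mostly those of cardiomyocytes and fibroblasts. For comparison, 4.87% of all tested genes fell and 4.79% rose, and above the line at 7 log2 CPM 16.0% fell. Of 20 adult cardiomyocyte markers, 6 fell, 1 rose and 13 did not pass, with a median log2 fold change of -0.37. Their summed level was 147650 to 158000 CPM in the controls and 94076 to 123510 CPM in the libraries labelled knockout. Myh6 alone made up 65539 to 72863 CPM of the control sums and 34127 to 54228 CPM of the others. It did not pass the test (log2 fold change -0.68 ± 0.30, SE, limma adjusted p = 0.18). Tcap, Tnni3, Ckm and Pln fell by 1.17, 1.01, 0.98 and 0.74 (log2). Nkx2-5 was the 1 that rose, by 0.62 ± 0.17 (limma adjusted p = 0.042). Gata4, Hand2 and Mef2a, transcription factor genes like Nkx2-5, had log2 fold changes of 0.34, 0.54 and -0.21 and did not pass. The values of Gata4 and Hand2 labelled knockout all lay above the controls, and those of Mef2a overlapped. Actn2 and Mybpc3, which encode sarcomere proteins, had log2 fold changes of 0.15 and -0.01 (adjusted p = 0.63 and 0.97). Of 12 fibroblast markers 7 rose, and their sum went from 3506 to 4395 CPM in the controls to 5808 to 11088 CPM. Of 12 endothelial markers 1 fell and 1 rose, and their sum was 2030 to 2134 CPM against 1639 to 2014 CPM. Of 12 macrophage markers 1 rose, Itgam, with sums of 1163 to 1280 CPM against 1421 to 1628 CPM. For endothelial and macrophage markers, 1 call among 12 genes is too few to be told from the shares over all tested genes. The part of any of the cell types in the falls above was not tested.

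Adipocytes, brown ones above all, also express these enzymes, and traces of their RNA differed between libraries. Of 14 adipocyte markers 11 were in the table and 6 were tested, of which 1 fell, Cfd, and 1 rose, Cidea. The summed level of the 11 was 963 to 1098 CPM in the controls and 739 to 1001 CPM in the libraries labelled knockout. Most of it came from Plin4 and Fabp4, so the sum says little of the rarer markers below. Ucp1, the defining gene of brown adipocytes, stood at 3.78 log2 CPM in control 3 and -1.20 in control 4, and at the floor of the table, -3.29, in control 5 and in all 3 libraries labelled knockout. Adipoq was at 1.65, -1.20 and 0.69 log2 CPM in controls 3, 4 and 5, and at -3.29, -1.75 and -2.19 in replicates 6, 7 and 8. Plin1 was at 2.42, -2.23 and 0.69 log2 CPM in the controls against -3.29, -3.29 and -1.58. The median of the 36 genes relative to the control mean was -0.01, 0.05 and -0.02 log2 in controls 3, 4 and 5. Whether adipocyte RNA had a part in the falls above was not tested. Of 12 skeletal muscle markers 9 were in the table, with sums of 8.28 to 11.2 CPM against 6.32 to 17.2 CPM. Of the 3 tested, Tnnt3 rose, with 14, 1 and 5 recovered reads in the controls against 61, 43 and 29. Tnni2 and Atp2a1 had log2 fold changes of -1.88 and -0.51 and did not pass (limma adjusted p = 0.051 and 0.67).

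**Figure D5:**
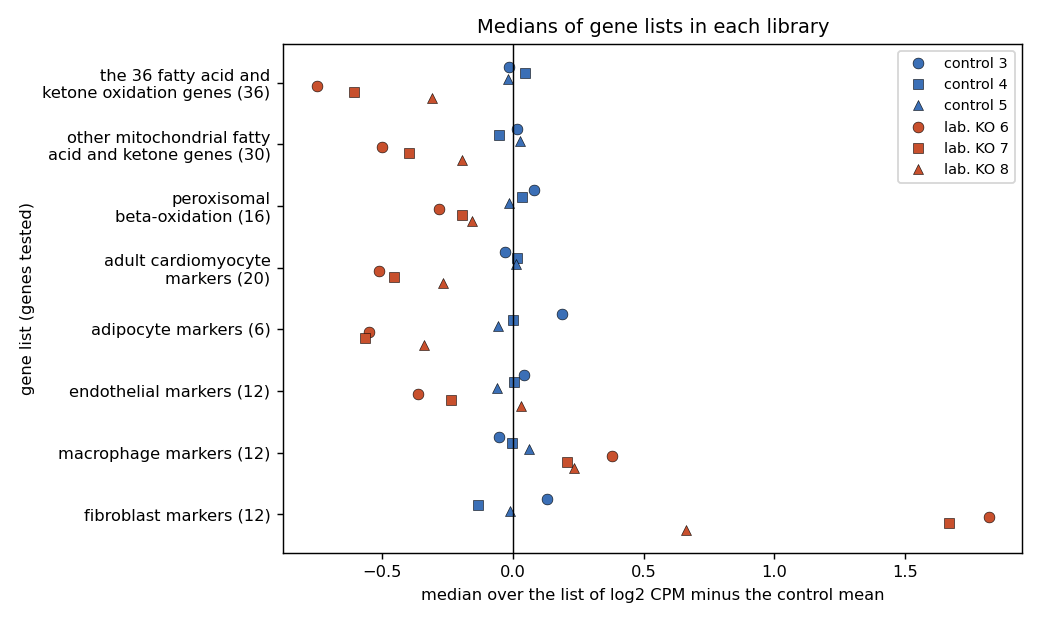
Median over each gene list of log2 CPM minus the control mean, in each library, with the number of genes tested in brackets. The 36 genes lie at -0.75, -0.61 and -0.31 in replicates 6, 7 and 8, the cardiomyocyte markers at -0.51, -0.46 and -0.27, and the fibroblast markers above all controls.

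How many of the 36 genes fell depended on the libraries and on the model of the variance. Leaving out control 3, 4 or 5 gave 10, 5 and 9. Leaving out replicate 6, 7 or 8 gave 14, 13 and 23. The number of all tested genes called in either direction changed as well, from 1209 with all libraries. It was 529, 407 and 419 without control 3, 4 or 5, and 992, 695 and 2176 without replicate 6, 7 or 8. Etfb, Acaa2, Eci1, Hadha and Acadvl, 5 of the 17, passed with each library left out. When limma was run without an intensity trend in the variance, 0 of the 36 fell after adjustment. Of all 12516 tested genes, 121 were called in either direction in that fit. There 21 of the 36 had an unadjusted p under 0.05 with a negative log2 fold change, against 11.2% of all tested genes. The adjusted p of the 17 was 0.052 to 0.17.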

How the data were processed

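Mouse heart RNA was sequenced in 6 libraries, 3 control and 3 labelled knockout, grouped by the titles of the samples. The authors deposited log2 CPM values, 1 column per library, for 14133 genes (per the file headers). The submitters' processing notes give the build as mm10 and list the tools CASAVA, HISAT2 and edgeR, with no version and no role. The lowest value is -3.29 (log2 CPM) in every library, the mark of a pseudocount added before deposit. Steps above it gave reads per gene and their totals. Whole reads within 0.002 were found in all 6 libraries for 71.7% of genes.

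The 12516 genes whose mean over the 6 libraries reached 0 (log2 CPM) were tested in limma (version 3.58.1, R 4.3.3). The linear model had 1 mean per group and a variance trend over level, and p-values were two-sided, Benjamini-Hochberg adjusted over all tested genes, threshold 0.05. "Fell" and "rose" mean past that threshold. The procedure was tested on simulated data. Pairs of genes were compared by the exact permutation test on within-library differences.

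The genes, lists, pairs and tests were chosen with earlier results of these data known. The text gives every one of the 36 genes, and up to 4 genes per other list with the smallest p. Acot9, Slc16a1, Ucp1, Adipoq, Plin1, Myh6, Actn2, Mybpc3, Plin4, Acox2 and Bdh2 were named after their values were seen. The alternatives changed the filter (none, or a mean of 3), the scaling (median centring or quantile) or the pseudocount (1 CPM). Others changed the variance model (untrended, robust, or weights per library), the tool (limma-voom on recovered reads) or the call rule (0.01, or 1.5-fold), or dropped each library in turn. The limma-voom fit scaled the reads by library totals and not as deposited, so it changed more than the tool. Its median log2 fold change was 0.08 over all tested genes and -0.47 over the 36.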

Additional observations from a re-analysis of the deposited data

How the results depend on the processing

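No paired analysis was possible because the 2 groups share no replicate number. Of the 36 genes, the number that fell was 17, and 14 to 20 in the alternatives not named here that kept all libraries. It was 0 without a trend, 11 at a threshold of 0.01, 13 for at least 1.5-fold, and 5 to 23 with 1 library left out. Bdh1 was the 1 gene that rose in each of these. The number of all genes called was 1209, and 121 without a trend, 432 at a threshold of 0.01 and 407 to 2176 with 1 library left out. Of 539 values of single genes under alternatives, 537 kept their direction, 59 lost a call and 11 gained one. The 2 that reversed, neither past the test, were the log2 fold changes of Acsl3 without control 5 (-0.081, range to 0.526 with 1 library left out) and of Cpt1a without replicate 7 (-0.021, range to 0.287). The 48 alternative values of the 6 pairs kept their sign and moved by less than the SD pooled over both groups, but Cpt1b minus Cpt1a went from -0.64 to -0.40 without replicate 7, and Acacb minus Mlycd from -0.17 to -0.04 without replicate 6 and to -0.11 after quantile normalization. The causes were not tested. With 3 libraries a group the exact test cannot go below 0.1.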

Other observations

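Acox2, which encodes a peroxisomal oxidase of branched chains and bile acid intermediates, and Bdh2, a cytosolic dehydrogenase named after Bdh1, were left out of the test by the filter on low values. Acox2 stood at -3.29, -3.29 and -2.30 log2 CPM in control replicates 3, 4 and 5, where -3.29 is the floor of the table. In labelled knockout replicates 6, 7 and 8 it was at 0.80, 1.65 and 1.75 log2 CPM. Bdh2 stood at -1.996, -0.604 and -0.13 log2 CPM in the controls and at 0.42, 1.04 and 1.21 in the libraries labelled knockout. In recovered reads, Acox2 had 0, 0 and 1 in the controls against 16, 31 and 28, and Bdh2 had 2, 5 and 8 against 12, 20 and 19. In both genes the groups did not overlap, and for 14.4% of all tested genes the values labelled knockout likewise lay above all controls. Acsm5 and Acot4, the other genes of their lists left out by the filter, overlapped between groups.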
